A study of Mus musculus with 8 samples.

Results

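Proteasome genes were followed through treatment of mouse epididymal white fat with CL 316243, a drug that acts on the β3-adrenergic receptor of fat cells and starts lipolysis. Members were all genes with a probe set assigned to a single symbol that begins with Psma, Psmb, Psmc, Psmd or Psme, each represented by the probe set with the highest mean over 8 arrays. The rule found 42 of the 8251 genes with such a probe set, on 53 probe sets. Of the 42, Psmc3ip (a recombination factor) and Psme3ip1 (a protein that binds an activator subunit) share the prefix but are not proteasome subunits, which left 40. Psme2, the partner of Psme1, lay on 2 probe sets that are also assigned to its copy Psme2b, so it has no value here. Psmc4 and Psmd2 lay under the floor of 170 intensity units on all arrays, with highest values of 155 and 62, and 38 proteasome genes were tested.

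Each of the 8 groups was read on 1 Affymetrix U74Av2 array. Wild type mice and Ppara KO mice, which lack the fatty acid-activated nuclear receptor PPARα, were controls, or received 30 nmol of CL 316243 and were sampled at 8 hours, or received 3 nmol per hour for 3 or 6 days. The wild type control is described as without drug, and the labels say nothing of a vehicle, of the animals' age, of pooling, or of the strain. With 1 array per group, treatment was tested across the genotypes and genotype across the times. The p-values rest only on the spread between arrays that genotype plus time leave over. Some of it may be technical, and any difference in response between the genotypes is part of it.

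The proteasome degrades proteins that carry ubiquitin. Its core particle is a stack of rings: the outer rings are built from the alpha subunits (Psma genes) and gate the entry, and the inner rings from the beta subunits (Psmb genes), of which Psmb5, Psmb6 and Psmb7 carry the cutting sites. A regulatory particle of ATPases (Psmc genes) and non-ATPase subunits (Psmd genes) binds ubiquitin chains, unfolds the substrate and feeds it to the core. In immune cells, and elsewhere under interferon, Psmb8, Psmb9 and Psmb10 replace Psmb5, Psmb6 and Psmb7 and form the immunoproteasome, which works with the Psme1 and Psme2 cap in making peptides for class I antigen presentation. In brown fat, proteasome genes are known to be raised in the cold through the transcription factor NRF1, the product of Nfe2l1.

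Promoter sequence is shown for the 3 genes that passed the test at 8 hours (Psmb5, Psmd12 and Psma5) and for the immunoproteasome genes Psmb8 and Psmb9, because their values part at that time. All are from RefSeq on GRCm38.p6, 5′ to 3′ on the gene's strand, 100 bases each. Capitals mark TGACNNNGC, the core of the antioxidant response element that NRF1 and NRF2 bind, in Psmb5, and the same motif read on the other strand in Psmd12. They mark TTCNNNGAA, the gamma-activated site of STAT factors, in Psmb8, and CCAAT, the NF-Y box, read on the other strand, in Psmb9. The windows are chr14:54617996-54618095 (minus strand) for Psmb5, chr11:107479278-107479377 (plus) for Psmd12, chr3:108256826-108256925 (plus) for Psma5, chr17:34198053-34198152 (plus) for Psmb8 and chr17:34187331-34187430 (minus) for Psmb9.
Psmb5: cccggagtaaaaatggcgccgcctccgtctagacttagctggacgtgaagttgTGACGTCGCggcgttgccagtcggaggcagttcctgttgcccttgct
Psmd12: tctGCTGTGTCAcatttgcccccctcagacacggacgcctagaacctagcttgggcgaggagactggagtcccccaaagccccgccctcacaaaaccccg
Psma5: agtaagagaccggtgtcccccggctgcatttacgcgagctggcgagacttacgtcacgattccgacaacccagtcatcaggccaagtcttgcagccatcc
Psmb8: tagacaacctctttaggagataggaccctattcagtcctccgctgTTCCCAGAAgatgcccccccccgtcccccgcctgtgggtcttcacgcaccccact
Psmb9: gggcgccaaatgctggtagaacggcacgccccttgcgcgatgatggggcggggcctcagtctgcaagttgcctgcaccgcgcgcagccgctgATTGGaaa

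The motif lies near the start in Psmb5 and at the far end of the promoter window in Psmd12. In the 300 bases from 250 before to 50 after a start, searched on both strands, TGACNNNGC was found in 6 of the 34 proteasome genes that matched by symbol (17.6%: Psmb5, Psmb6, Psmc6, Psmd9, Psmd12 and Psme4) and in 17.3% of the 4932 tested genes with a promoter. CCAAT was in 13 of 34 (38.2%), against 42.9%. The core of the interferon-stimulated response element (GAAA and GAAA, parted by any pair of bases) was in 4 of 34 (11.8%: Psmb3, Psmd4, Psmd9 and Psme1), against 3.59%, and TTCNNNGAA in 2 of 34 (5.88%: Psmb8 and Psmd2), against 8.05%. Matches of CCAAT on the 2 strands share bases in Psmd14. A match describes these letters and is not a bound site.

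All 8 arrays had a median of 320 intensity units, so values are relative to the other genes of the same array. Ppara stood between 395 and 1843 on wild type arrays and between 214 and 336 on knockout arrays, without overlap, and its probes are not placed relative to the deleted part. Fat markers were bright throughout, with Adipoq (adiponectin) between 20668 and 57089. Markers of neighbouring organs were high on some arrays: the summed epididymis markers (3 tested) were 83337 in the knockout control, 12409 in knockout at 8 hours, 7106 in wild type at 6 days and at most 1731 elsewhere, and the summed exocrine pancreas markers (5 tested) were 68416 in the wild type control, 19547 in knockout at 8 hours and at most 3736 elsewhere. The Gapdh 5′ over 3′ signal ratio was 0.793 in the knockout control and 1.04 to 1.18 on the other arrays. Their part in the changes below was not tested; the 8 hour results without each array are given with them. In tissue RNA, fewer cells of a type and less RNA per cell cannot be told apart.

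At 8 hours the constitutive proteasome stood modestly higher in both genotypes, while most immunoproteasome genes did not share that shift. Of 38 genes, 27 (71.1%) had both 8 hour arrays above both control arrays, against 29.9% of the 6133 genes tested. These were 26 of the 34 genes outside the immunoproteasome (76.5%) and 1 of the 4 immunoproteasome genes, Psmb10. The median log2 change of the 34 genes outside the immunoproteasome was 0.41, against -0.02 over all genes, and 30 of the 34 were positive. The shift was small: 0 of 38 genes reached 2-fold in both genotypes, where 5.59% of all genes did. In the limma fit over both genotypes, 3 genes rose (Psmd12, Psmb5 and Psma5) and 0 fell. The 3 of 38 that rose lay near the background, in which 6.44% of all genes were called higher. The 0 of 38 that fell compare with 8.23% called lower. In either direction 14.7% of all genes were called, a larger share than among the 38. An unadjusted p under 0.05 was found for 12 of 38, against 32.4% of all genes. The proteasome genes were also brighter than most, with a median mean intensity of 3757 against 977 over all genes, and the part of brightness in these shares was not tested.

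**Figure D1:**
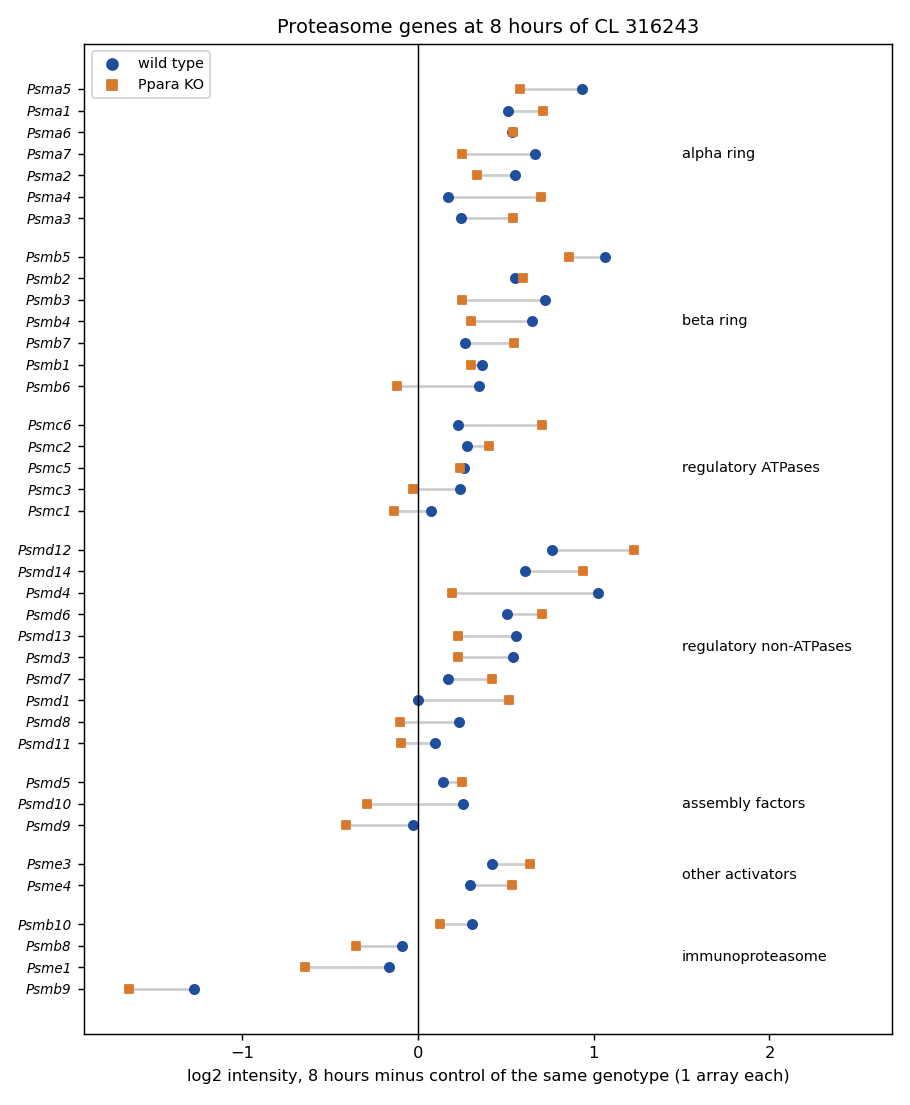
Log2 intensity at 8 hours minus the control of the same genotype (x axis) for the 38 tested proteasome genes in rows, grouped by class; circles are wild type and squares Ppara KO, 1 array each, and no error can be drawn. All 7 alpha subunits lie to the right of 0 in both genotypes, and Psmb9 lies farthest to the left.

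With any 1 array left out, between 27 and 33 of the 34 genes outside the immunoproteasome had a positive 8 hour change, and these need not be the 30 of the full fit. The calls were less steady. They numbered 0 without either 8 hour array, either 3 day array or the knockout control, 1 (Psmd12) without the wild type control, and 2 (Psmd12 and Psmb5) without either 6 day array.

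The alpha ring lay higher as a block at 8 hours. All 7 genes had both 8 hour arrays above both controls, with log2 changes from 0.39 to 0.76. Psma5 rose: wild type intensities, in the order control, 8 hours, 3 days and 6 days, were 2628, 5027, 3406 and 3289, and those of knockout 3092, 4629, 3596 and 3535. The same order is used for every gene below that has 4 values per genotype. Both 8 hour arrays were the highest of their genotype, and the change was 0.76 ± 0.18 (SE, 1.69-fold, limma adjusted p = 0.0424). Psma6 was among the brightest, between 8451 and 13022, and Psma3 changed least (0.39 ± 0.18, adjusted p = 0.184). Psma7 returned below its 8 hour level by 3 days in both genotypes.

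Psma1 had a course of its own within the ring. Wild type values were 1856, 2648, 4151 and 3903. Knockout values were 1604, 2629, 2932 and 2958. All 6 treated arrays lay above both controls, as they did for Psma2, Psma4, Psma5 and Psma6. Of all genes, 29.9% had both 8 hour arrays above both controls, 24.0% both 3 day arrays and 17.4% both 6 day arrays. The share with all 6 above was not counted. Only for Psma1 among the alpha genes did all late arrays lie above both 8 hour arrays. The changes were 0.61 ± 0.20 at 8 hours, 1.02 ± 0.20 at 3 days and 0.98 ± 0.20 at 6 days, with limma adjusted p of 0.0898, 0.0749 and 0.0911, so none passed; with an intensity trend and robust prior the 3 day change passed.

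In the constitutive beta ring 6 of 7 genes had 8 hour arrays above both controls. Psmb5, the subunit with chymotrypsin-like activity, rose. Wild type arrays gave 3127, 6538, 5369 and 5594 and knockout arrays 3945, 7165, 4849 and 4541. Every treated array was above both controls, and both 8 hour arrays were highest. The 8 hour change was 0.96 ± 0.22 (1.95-fold, limma adjusted p = 0.0374). This rests on 1 of 2 probe sets: the dimmer one stood at 432 (control) and 279 (8 hours) in wild type, at 489 and 213 in knockout, and with the mean of both the change was 0.02 (adjusted p = 0.967).

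The other catalytic subunits moved less. Psmb7, with trypsin-like activity, stood at 5317, 6400, 6792 and 6717 in wild type and at 5091, 7433, 5852 and 6231 in knockout, with a change of 0.41 ± 0.19 at 8 hours (limma adjusted p = 0.200). Psmb6, with caspase-like activity, was the 1 beta gene whose groups overlapped. From control to 8 hours it was 3997 and 5088 in wild type, 5048 and 4640 in knockout (0.11 ± 0.19, adjusted p = 0.739). Of the structural beta subunits, Psmb2 was close between genotypes, with 5142 (control) and 7535 (8 hours) in wild type and 5009 and 7581 in knockout (0.57 ± 0.17, adjusted p = 0.0729).

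Most regulatory particle genes had higher 8 hour arrays, and 1 (Psmd12) passed. Of the 15 tested, 10 had 8 hour arrays above both controls, and all 15 had both 3 day arrays below both 8 hour arrays, which 27.5% of all genes did. At 6 days 14 of 15 lay below the 8 hour arrays, against 25.2% of all genes. No single gene passed between these times, as given with the late course below.

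Psmd12, a lid subunit, rose and had the largest 8 hour increase of the 38. Intensities of 1433, 2432, 1602 and 1373 were read in wild type and of 986, 2311, 1356 and 1415 in knockout. The 8 hour arrays stood apart from the other 6, and the change was 0.996 ± 0.21 (1.99-fold, limma adjusted p = 0.0310). Psmd14, the lid enzyme that removes ubiquitin chains from substrates, was 3102 in control and 4727 at 8 hours in wild type, 2971 and 5693 in knockout (0.77 ± 0.19), and its adjusted p of 0.0502 just missed the threshold of 0.05. Psmd4, a receptor for ubiquitin chains, was 3949 and 8033 in wild type, 5073 and 5806 in knockout (0.61 ± 0.24, adjusted p = 0.142). Psmd6 had a change of 0.61 ± 0.19 (adjusted p = 0.0874). At the low end, Psmd8 and Psmd11 had changes of 0.06 ± 0.18 and 0.00 ± 0.17.

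Among the ATPases, 3 of 5 genes (Psmc2, Psmc5 and Psmc6) had 8 hour arrays above both controls, and 0 passed. Psmc6 had the largest change, with 7678 and 8996 in wild type, 6551 and 10676 in knockout (0.47 ± 0.20, limma adjusted p = 0.175). Psmc1 had the smallest, with 2328 against 2445 and 2369 against 2155 (-0.03 ± 0.18). By 6 days Psmc1 stood at 1710 and 1843, the lowest of its arrays in each genotype (-0.40 ± 0.18, adjusted p = 0.302).

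The 3 assembly factors of the regulatory particle, which leave the finished complex, were mixed. Psmd5 was slightly higher at 8 hours (1345 to 1481 and 1374 to 1636), Psmd10 (gankyrin) went up in wild type and down in knockout (267 to 319 and 407 to 333), and Psmd9 was lower in both (1279 to 1252 and 1333 to 1003). Their changes were 0.20 ± 0.17, -0.02 ± 0.20 and -0.22 ± 0.20, with limma adjusted p of 0.485, 0.983 and 0.496. Psmd9 was the 1 gene outside the immunoproteasome with both 8 hour arrays below both controls.

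Both single-gene activators had 8 hour arrays above both controls. Psme3, the nuclear activator, was 1873 in control and 2503 at 8 hours in wild type, 1862 and 2893 in knockout (0.53 ± 0.22, limma adjusted p = 0.165) and was back at 1993 and 1424 by 6 days. Psme4, a large activator, stood at 1575, 1936, 2103 and 2521 in wild type. In knockout it stood at 1562, 2262, 2425 and 2087. Its 6 treated arrays all lay above both controls, as did those of Psma1, Psmd14 and several other members, and the share over all genes was not counted. The changes were 0.42, 0.53 and 0.55 at the 3 times, each ± 0.20 (limma adjusted p = 0.217, 0.209 and 0.241).

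At 8 hours most immunoproteasome genes lay lower, not higher. Of the 4 measured, 3 (Psmb8, Psmb9 and Psme1) had both 8 hour arrays below both controls, as 31.2% of all genes did, and Psmb10 had both above. None passed, and of the 4 only Psmb9 had an unadjusted p under 0.05. Psmb9, the replacement for Psmb6, gave 835, 345, 364 and 458 in wild type and 837, 267, 768 and 1041 in knockout. The controls are close to each other and both 8 hour arrays lie far below them, but the change of -1.46 ± 0.42 (0.363-fold) had a limma adjusted p of 0.0705. Over all alternatives it lay between -2.02 and -0.90, with adjusted p from 0.0556 to 0.350.

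Psmb8, the replacement for Psmb5, stood at 2348, 2201, 2049 and 1722 in wild type and at 2477, 1939, 2701 and 3202 in knockout. Its 8 hour change was -0.22 ± 0.28 (limma adjusted p = 0.649). Psme1, of the cap that binds the core, stood at 4045, 3607, 4071 and 5053 in wild type and at 3721, 2381, 4411 and 4688 in knockout (-0.40 ± 0.22 at 8 hours, adjusted p = 0.272), so that 8 hours was its lowest point in each genotype. Psmb10, the replacement for Psmb7, stood at 1910, 2364, 1917 and 1808 in wild type and at 1781, 1944, 2595 and 2805 in knockout (0.22 ± 0.27, adjusted p = 0.642).

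**Figure D2:**
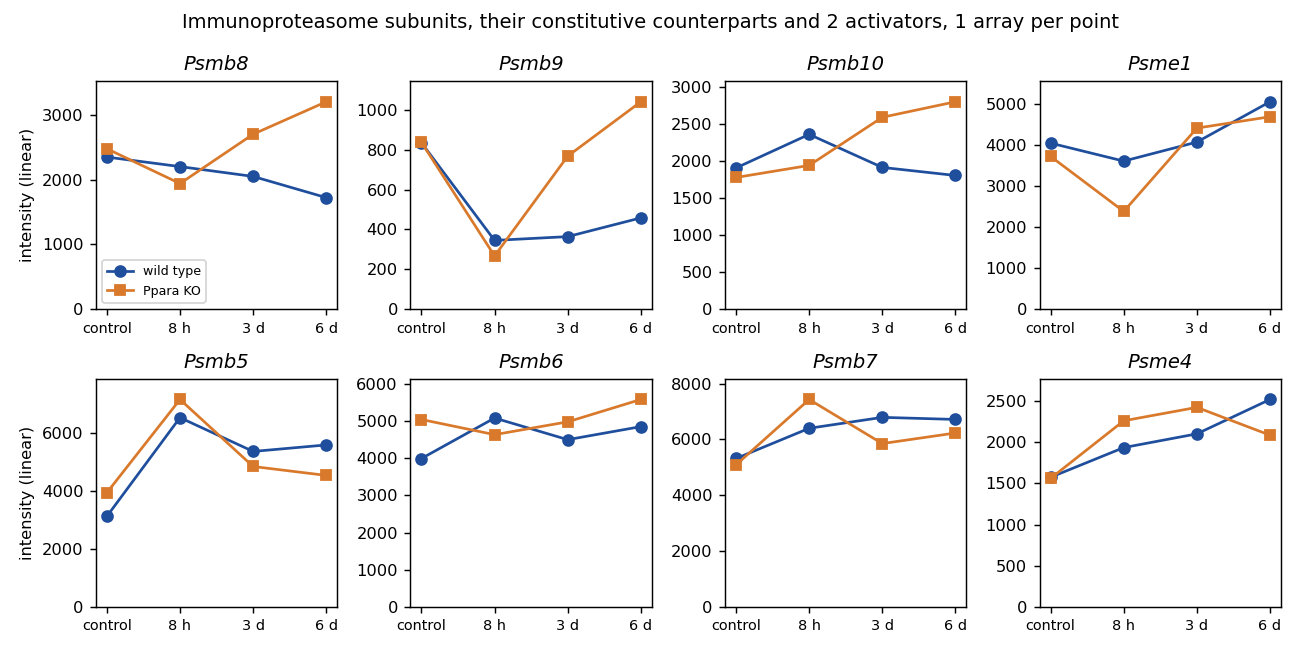
Deposited intensity on a linear scale from 0 (y axis) by treatment (x axis) in wild type (circles) and Ppara KO (squares), 1 array per point: the replacement subunits Psmb8, Psmb9 and Psmb10 and the cap gene Psme1 above, and Psmb5, Psmb6, Psmb7 and the activator Psme4 below. Psmb9 is at 835 and 837 in the controls and at 345 and 267 at 8 hours, and Psmb5 at 3127 and 3945, then 6538 and 7165; the knockout values of Psmb8, Psmb9 and Psmb10 lie above those of wild type at 3 and 6 days.

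The 8 hour changes of Psmb8 and Psmb9 lay below those of their counterparts in both genotypes. The log2 change of Psmb8 minus that of Psmb5 was -1.16 in wild type and -1.21 in knockout, and that of Psmb9 minus Psmb6 was -1.62 and -1.53. For Psmb10 minus Psmb7 it was 0.04 and -0.42. These are unequal changes and not ratios of the proteins, and the first pair reverses (0.54 and 0.85) with the dimmer Psmb5 probe set, an alternative chosen after the data were seen.

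Summed markers of leukocytes, where the immunoproteasome is the usual form, were higher at 8 hours than in the controls. The 5 pan-leukocyte markers (all tested) summed to 4540 and 10104 in the wild type and knockout controls and to 20396 and 18298 at 8 hours. Much of the knockout control sum was Cd52, at 7111 there and 4211 at 8 hours, against 1006 and 8840 in wild type. Ptprc, Laptm5, Coro1a and Cd53 were higher at 8 hours in both genotypes. At 8 hours 0 of the 5 passed in limma. The 10 macrophage markers summed to 22405 and 21277 in the controls, 54088 and 55875 at 8 hours, 81817 and 115860 at 3 days, and 29126 and 132742 at 6 days. Neutrophil markers (6) summed to 2384 and 2468 in the controls and to 25624 and 34021 at 8 hours. Of 16 lymphocyte markers 3 were tested and 10 lay under the floor filter, among them Cd3e and Cd8a. All 7 tested adipocyte markers fell at 8 hours in limma, and their sum was 168418 and 145081 in the controls against 63305 and 57254. The part of any of these cells in the proteasome values was not tested.

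By 3 and 6 days the medians were nearer 0. The median change of the 34 genes outside the immunoproteasome was 0.14 at 3 days and 0.09 at 6 days. In limma 0 of the 38 passed at 3 days (1.13% of all genes did) and 0 at 6 days (0.832%), while 4 and 3 had an unadjusted p under 0.05, against 21.6% and 18.2% of all genes. The 14 genes of the constitutive core had a median of 0.22 at both times, and 10 of 14 had 3 day arrays above both controls, against 24.0% of all genes. The regulatory particle had medians of 0.00 and -0.05, with 3 of 15. By genotype, the core median was 0.33 at 3 days and 0.28 at 6 days in wild type, and 0.16 and 0.13 in knockout. In knockout the median of the constitutive beta ring was near control, at 0.05 at both times. The difference between core and regulatory particle was not tested.

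**Figure D3:**
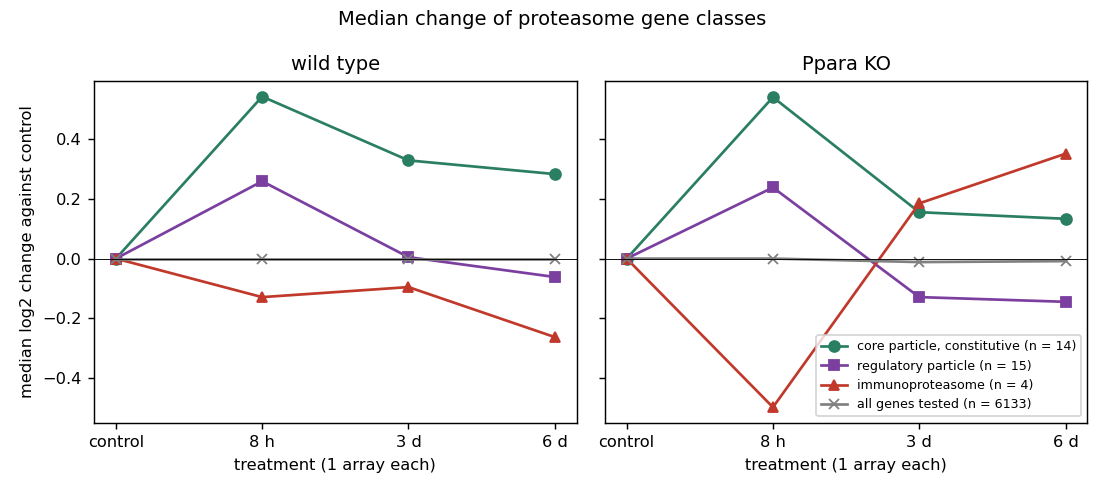
Median log2 change against the control of the same genotype (y axis) at 8 hours, 3 days and 6 days (x axis) for 4 gene groups, wild type at left and Ppara KO at right, from 1 array per treatment. The constitutive core is at 0.54 in both genotypes at 8 hours and the regulatory particle at 0.26 and 0.24, and the immunoproteasome at 6 days is at -0.26 in wild type and 0.35 in knockout.

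Between times, 0 of 38 genes passed in limma for 3 days against 8 hours (4.4% of all genes did), 6 days against 8 hours (8.9%) or 6 days against 3 days (0.0%). Unadjusted p under 0.05 was found for 7, 11 and 0 of the 38, against 23.0%, 27.4% and 1.78% of all genes. From 8 hours to 3 days the change farthest from 0 was that of Psmb9 (0.80 ± 0.42, limma adjusted p = 0.321), and the most negative were those of Psmd12 (-0.69 ± 0.21, adjusted p = 0.121) and Psmd11 (-0.59 ± 0.17, adjusted p = 0.115). Psmd11 stood at 4910, 5249, 3203 and 3444 in wild type and at 4070, 3804, 2755 and 2872 in knockout, and its late arrays lay below both controls (-0.59 ± 0.17 at 3 days, adjusted p = 0.141). Its other 2 probe sets above the floor stood at 0.19 and 0.27 at 3 days, so this direction rests on the brightest. From 3 to 6 days little moved in the whole group, with a median change of -0.03 over the 38.

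No genotype difference passed the test. Knockout minus wild type had a median of -0.00 over the 34 genes outside the immunoproteasome, and in limma 0 of 38 passed (0.0% of all genes did), with 1 unadjusted p under 0.05 against 15.3%. The differences farthest from 0 were Psmb9 (0.47, adjusted p = 0.441), Psmb8 (0.30, adjusted p = 0.469), Psmd10 (0.28, adjusted p = 0.383), Psmd11 (-0.30, adjusted p = 0.324) and Psma1 (-0.28, adjusted p = 0.377). For the response to drug as a whole, knockout minus wild type, 0 of 38 passed (0.0% of all genes) and 0 had an unadjusted p under 0.05 (10.2% of all genes). Its extremes were Psmb9 (0.63 ± 0.73), Psmd12 (0.45 ± 0.25), Psmb3 (-0.57 ± 0.29) and Psmd4 (-0.56 ± 0.30).

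Late in the course 3 of the 4 immunoproteasome genes stood higher on the knockout arrays. For Psmb8, Psmb9 and Psmb10, both late knockout arrays lay above both late wild type arrays, as 29.4% of all genes did, while Psme1 at 6 days was 5053 in wild type and 4688 in knockout. In a fit chosen after these values were seen, the genotype difference at 3 and 6 days exceeded that at control and 8 hours by 1.31 ± 0.27 for Psmb9, 0.73 ± 0.26 for Psmb10, 0.70 ± 0.30 for Psmb8 and 0.36 ± 0.29 for Psme1. None passed (limma adjusted p = 0.583, 0.583, 0.592 and 0.709), and 0.0% of all genes did. Unadjusted p under 0.05 was found for 2 of 38, against 8.41% of all genes. At 6 days the summed macrophage markers were also higher in knockout, as given above, and the 6 tested interferon regulators (Irf1, Irf7, Irf8, Irf9, Ifngr1 and Ifngr2) summed to 9257 in knockout and 5419 in wild type. Of these, Irf8 was 2489 in knockout and 866 in wild type, and Irf7, Irf9 and Ifngr2 were also higher in knockout. Irf1 (1686 and 1569) and Ifngr1 (1800 and 1811) were close. Ifngr2 was already apart in the controls (843 in knockout and 332 in wild type). The part of these genes in the immunoproteasome values was not tested.

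Other genes of the pathway were read from lists. Of 10 proteasome-bound and shuttle proteins, 1 rose at 8 hours, where 6.44% of all genes rose, and the list median was 0.17. The 1 was Usp14, a deubiquitinase of the regulatory particle. It was 1505 in control and 2664 at 8 hours in wild type, 1595 and 3082 in knockout (0.89 ± 0.19, limma adjusted p = 0.0323). The second such deubiquitinase, Uchl5, stood at 0.73 ± 0.20 (adjusted p = 0.0669). Sem1, Txnl1, Zfand5 and Rad23b also had positive changes. Ecpas, Zfand2a, Ubqln1 and Ubqln2 had negative ones, down to -0.30 for Ubqln1. Of 5 genes of the p97 complex, which extracts ubiquitinated proteins, Ubxn4 rose (0.92 ± 0.21, limma adjusted p = 0.0389). Vcp, p97 itself, went from 6793 to 9982 and from 6811 to 9711 (0.53 ± 0.18, adjusted p = 0.0938) and fell from 8 hours to 6 days (-0.80, adjusted p = 0.0467). At 8 hours Ufd1, Faf1 and Ubxn1 stood at -0.33, -0.16 and -0.14, and the list median was -0.14. Of 6 genes listed for proteasome assembly and related steps (Pomp, Psmg1, Psmg2, Psmg3, Psmg4 and Akirin2) 0 passed, with a median of 0.19 at 8 hours. Their largest change was in the chaperone gene Psmg2 (0.66 ± 0.26, adjusted p = 0.142). Of the listed ubiquitin genes and activating enzymes of ubiquitin or ubiquitin-like proteins, only Uba7, for a ubiquitin-like protein, was tested, and it did not pass.

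Of 7 tested regulators of proteasome genes, 0 passed at 8 hours, and Nfe2l1 was the 1 with a negative change. Nfe2l1 stood at 9047, 5717, 6285 and 6142 in wild type and at 6726, 4680, 4849 and 4413 in knockout (-0.59 ± 0.17 at 8 hours, limma adjusted p = 0.0692). All 6 treated arrays lay below both controls, and the share of all genes with that pattern was not counted. Nfe2l2, which encodes NRF2, stood at 0.48 ± 0.21 (adjusted p = 0.184). Small Maf partners of these factors, Mafg and Mafk, fell from 8 hours to 6 days (-0.94 and -1.19, adjusted p = 0.0380 and 0.0493). Of 6 NRF2 target genes, the antioxidant genes Srxn1 (2.76 ± 0.24, adjusted p = 0.00418) and Txnrd1 (1.26 ± 0.18, adjusted p = 0.0128) rose at 8 hours. The list median of 1.06 compares with -0.02 over all genes.

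Class I antigen presentation genes lay mostly below control at 8 hours, with a median of -0.34 over 8 genes. Only Pdia3, an endoplasmic reticulum chaperone that serves many other proteins, passed, and it rose (1.25 ± 0.22, limma adjusted p = 0.0207). Tap1, a peptide transporter gene that shares a promoter region with Psmb9, stood at 1097, 976, 828 and 987 in wild type and at 1254, 666, 1428 and 1553 in knockout (-0.54 ± 0.34 at 8 hours, adjusted p = 0.337). Its 8 hour arrays were both below the controls, and its late knockout arrays were both above them. Tap2 stood at -0.55 ± 0.23 (adjusted p = 0.160).

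For 4 members several probe sets passed the floor filter, and they did not always run together. The second Psmb1 probe set stood at -0.36 at 8 hours and the brightest at 0.33. The second Psmd11 probe set was 1744 in control and 2597 at 8 hours in wild type, 1203 and 2828 in knockout (0.90), where the brightest was level. For Psmc3 the dimmest of 3 stood at 0.79 and the others at 0.11 and 0.00. Psmb5 is described above. In addition, 6 tested genes, Psmb5 and Psmd12 among them, were read from probe sets whose suffix (s or f) marks probes shared with other transcripts, so the part of related sequences in their values is unknown.

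**Figure D4:**
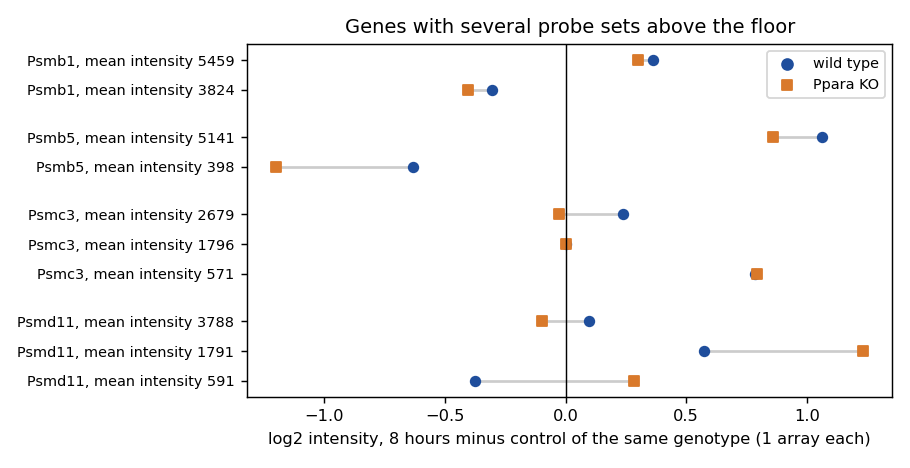
Log2 intensity at 8 hours minus control of the same genotype (x axis) for each probe set of Psmb1, Psmb5, Psmc3 and Psmd11 above the floor, in rows labelled with the mean intensity of 8 arrays; circles are wild type and squares Ppara KO, 1 array each. Probe sets of Psmb1 and of Psmb5 lie on opposite sides of 0 in both genotypes.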

How the data were processed

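The deposited table held 1 intensity per probe set and array, in whole numbers on a linear scale, of which 11.9% lay below 0. The authors had brought the arrays to a common distribution, as the deposited values show (median 320 on every array); how they did so, corrected background and summarised probes is not stated in the labels or file. Intensities under 170, the 40th percentile of all values, were set to 170, and log2 was taken. Of 12488 probe sets, 66 were array controls, 10833 had 1 gene symbol, 396 had several and 1193 were not listed in the platform annotation. Symbols were updated through RefSeq (GRCm38.p6). Probe sets above the floor on at least 2 of 8 arrays were kept, and the brightest stood for each of 6133 genes. All value columns were used (0 left out).

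Genotype plus time was fitted over 8 arrays with limma 3.58.1 in R 4.3.3 (3 residual degrees of freedom, 2 with an interaction), with Benjamini-Hochberg adjustment over all genes and a threshold of 0.05. Values after ± are standard errors from this fit. The fit was tested on simulated data for 6133 genes. Of 100 genes given a log2 change of 1, it called 33 at 8 hours, 31 at 3 days and 43 at 6 days. Of 100 given a change of 2, it called 91, 92 and 93, and of unchanged genes 5, 6 and 10. Smaller changes, such as most of those reported here, were not simulated. Described with values were all immunoproteasome genes and counterparts, members past the threshold, and the extremes of each class. Members and lists were chosen with earlier results of these data known. Alternatives changed the floor, filter, scaling, probe set, prior or log scale, or left out 1 array.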

Additional observations from a re-analysis of the deposited data

Results flagged for a closer look

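Psmd8, a lid subunit, was flagged because every treated array of wild type lay above its control and every treated array of knockout lay below. The share of all genes with this pattern was not counted. Wild type intensities, in the order control, 8 hours, 3 days and 6 days, were 3230, 3791, 3241 and 3648, and knockout intensities were 3738, 3484, 3337 and 3374. The wild type 3 day array was almost level with its control (0.005 on the log2 scale). The response in knockout minus that in wild type was -0.27 on the log2 scale, with a limma adjusted p of 0.708, so this difference did not pass. Those of Psmb3 (-0.57), Psmd4 (-0.56) and Psma7 (-0.51) lay farther from 0 and did not pass either. The controls, which differ by the organ markers given in the report, enter all 6 differences.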

How the results depend on the processing

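At 8 hours the count of proteasome genes past the threshold was 3, and it was 0 with the floor at the 25th percentile, 1 (Psmb2) without the filter on dim probe sets, 5 with an intensity trend and robust prior, and 0 to 2 with 1 array left out. At 3 days it was 0, and 1 (Psma1) with the trend and robust prior. The counts of 0 at 6 days, between times, between genotypes and for the drug response stayed 0 under every alternative that gave a value. The median 8 hour change outside the immunoproteasome stayed between 0.30 and 0.45, and the cause of its lowest value, without the knockout 8 hour array, was not tested. No paired analysis was possible because each group holds 1 array and the labels give no replicate numbers; genotype enters the fit as a block. Precision is limited by the number of arrays.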
